A study of Mus musculus with 21 samples.

Results

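Expression of 10 transcription factors that shape the lung epithelium during development was followed in the right lung of mice after the left lung had been taken out. They were Nkx2-1, Foxa1, Foxa2, Gata6, Sox9, Sox11, Id2, Foxp1, Foxp2 and Cebpa, taken by gene symbol from the annotation of the array, and each was read by 1 probe set, so that no choice among probe sets was needed. They were 10 of the 19938 genes with a single symbol on the array. Male C57BL/6 mice were sampled at day 0 without surgery, at day 3, day 7, day 14, day 28 and day 56 after left pneumonectomy, and at day 56 after sham surgery. Each of these 7 conditions had 3 Affymetrix arrays, hybridised with RNA of the cardiac lobe, the medial lobe and the whole right lung, which made 21 arrays. The labels give neither the age of the mice, nor how many animals stand behind an array, nor whether the 3 arrays of a condition come from the same animals, so p-values measure the spread between these samples. Day 0 lungs had no operation, and the sham lungs were matched to pneumonectomy at day 56 alone.

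Nkx2-1 is the homeodomain factor that sets lung identity in the foregut, and the forkhead factors Foxa1 and Foxa2 open chromatin at epithelial genes together with it. In the branching lung of the mouse embryo, Sox9 and Id2 mark the progenitors at the distal tips, whose progeny form the alveoli. Gata6 and Cebpa act in the maturation of alveolar cells and of surfactant production, Foxp1 and Foxp2 repress alternative fates in the epithelium, and Sox11 is expressed in embryonic tissues, with lung hypoplasia in mice that lack it. After pneumonectomy, the remaining lobes of the mouse grow and add alveoli. Most of these factors are also active in cells other than epithelium, Gata6 in macrophages of the body cavities, Sox9 in cartilage, Id2 and Foxp1 in lymphocytes and Cebpa in myeloid cells.

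The deposited values are log2 expression after RMA, so a difference of 1 is a doubling. All differences below are on this log2 scale and come from limma with terms for condition and region over the 21 arrays. The value after ± is the standard error of a difference, or the SD where so stated, and adjusted p is the limma p-value after Benjamini-Hochberg adjustment over all 19938 genes, called under 0.05. In counts, genes that rose or fell are those called higher or lower. Levels of different genes are not set against each other, because probe sets differ in brightness. Array medians ran between 5.98 and 6.18. Surfactant and other alveolar type II genes, which define the tissue, averaged 11.3 to 12.2 over the arrays of days 0, 3 and 7 and the sham lungs, near the top of the measured span of 2.98 to 14.1. The mean level of 59 small nucleolar and related RNAs, read as a check on the RNA, was 7.30 ± 0.44 in cardiac and 7.18 ± 0.14 in medial lobes, against 8.56 ± 0.72 in whole right lungs (SD, n = 7 each). Its highest value outside the whole lungs was 8.15 in the day 7 cardiac lobe. That array and the day 56 pneumonectomy whole lung array, which had 9.84, also had the lowest weights when limma scored array quality, and day 7 and day 56 results that rest on them are given without them as well.

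Between the conditions, 4 of the 10 factors differed in the moderated F test, against 7.76% of all genes. These were Foxa2 (adjusted p = 0.0162), Sox11 (adjusted p = 0.0238), Nkx2-1 (adjusted p = 0.035) and Gata6 (adjusted p = 0.0364), and Sox9 had adjusted p = 0.0634. At day 3 against day 0, Sox11, Foxa2 and Nkx2-1 were called lower and no factor was called higher. This is 3 of 10 against a background of 6.7% of all genes called, and 2.73% called lower. Without passing, Sox9 and Gata6 were higher in all 3 regions, and Foxa1, Foxp1 and Foxp2 were lower in all 3. At day 7 against day 0, Sox9 rose and Foxa2 fell, 2 of 10 against a background of 8.69%, split into 3.73% higher and 4.97% lower. The median difference of the 10 factors was -0.24 at day 3 and -0.24 at day 7, and over all genes it was 0.01 and 0.03 at the same days. Against sham lungs, Sox11, Foxa2 and Nkx2-1 fell at day 3, 3 of 10 against 7.67% of all genes called and 3.21% called lower. Foxa2 alone fell against them at day 7, 1 of 10 against 4.52% called and 2.15% called lower. From day 14 on, no factor passed in any comparison with day 0 or sham lungs.

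**Figure D1:**
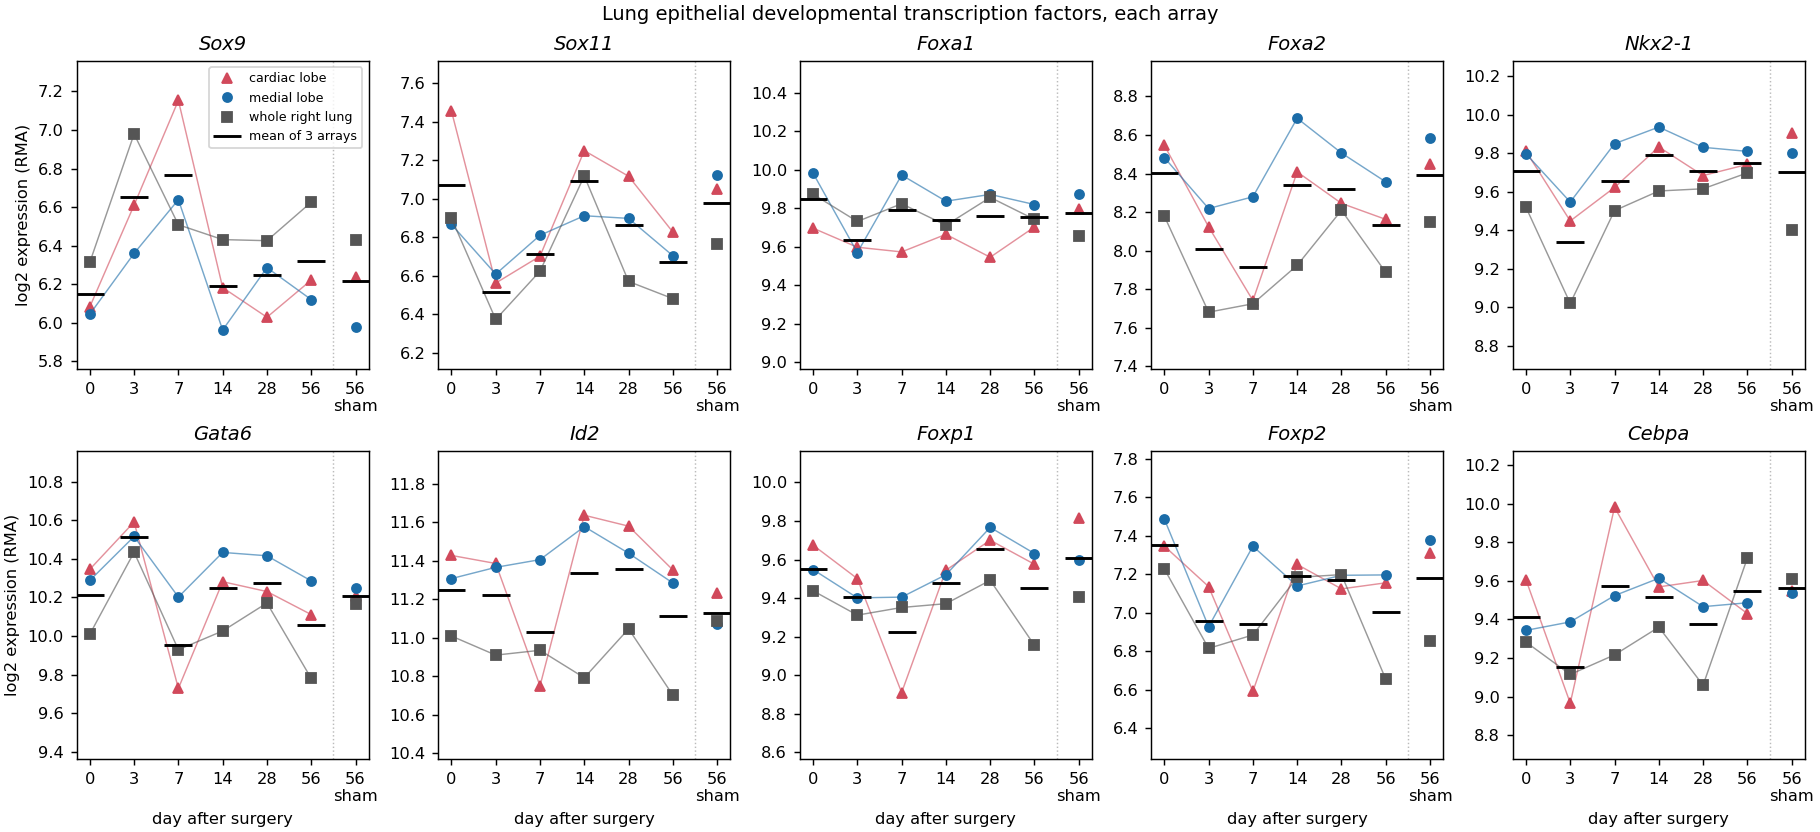
Log2 expression of the 10 factors on each array (vertical axis, log2 RMA value, the same span in every panel) by day after surgery (horizontal axis), with cardiac lobes as triangles, medial lobes as circles, whole right lungs as squares and the mean of 3 arrays as a bar; sham lungs stand at the right of each panel. Foxa2, Nkx2-1 and Sox11 dip at day 3 in all 3 regions, and Sox9 stands above day 0 at days 3 and 7. The cardiac array of day 7 is the lowest of its region for Foxa2, Gata6, Id2, Foxp1 and Foxp2.

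The promoters of the 3 factors that fell together at day 3 are printed with that of Foxa1, the close relative of Foxa2, to show what stands before their starts. RefSeq sequence of build GRCm38.p6 was used, from 250 bases before the annotated start up to the base before it, read on the strand of the gene. Windows were searched for 7 of the 10 factors, and Foxa2 had 3 annotated starts, of which the one with a match is shown. Searched motifs were the forkhead motif TGTTTAC, the GATA motif AGATAA, the SOX motif ACAATGG, the NK2 homeobox motif CAAGTG and the C/EBP motif TTGCNNAA, each on both strands, and capitals mark a match. The Foxa2 window chr2:148045465-148045714 (minus strand) holds 1 GATA match between positions -183 and -178 from the start, and the Foxa1 window chr12:57546112-57546361 (minus strand) holds 1 forkhead match between positions -141 and -135. The Nkx2-1 window chr12:56536909-56537158 (minus strand) and the Sox11 window chr12:27342719-27342968 (minus strand) hold none of the 5 motifs.
Foxa2: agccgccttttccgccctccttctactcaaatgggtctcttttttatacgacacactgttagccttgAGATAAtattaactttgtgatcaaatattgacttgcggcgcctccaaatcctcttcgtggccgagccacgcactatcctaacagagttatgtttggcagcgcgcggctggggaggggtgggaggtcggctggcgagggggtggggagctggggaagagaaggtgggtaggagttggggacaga
Foxa1: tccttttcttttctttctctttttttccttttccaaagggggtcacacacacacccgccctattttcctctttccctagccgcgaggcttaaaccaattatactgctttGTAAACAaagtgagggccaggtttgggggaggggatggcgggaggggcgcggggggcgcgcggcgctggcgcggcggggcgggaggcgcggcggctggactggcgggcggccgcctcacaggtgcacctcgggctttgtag
Nkx2-1: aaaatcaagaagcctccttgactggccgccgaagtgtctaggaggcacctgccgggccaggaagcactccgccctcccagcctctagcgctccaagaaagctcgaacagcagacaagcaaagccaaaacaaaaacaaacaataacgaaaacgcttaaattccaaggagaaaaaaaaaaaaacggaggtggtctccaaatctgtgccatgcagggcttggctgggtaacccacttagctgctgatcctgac
Sox11: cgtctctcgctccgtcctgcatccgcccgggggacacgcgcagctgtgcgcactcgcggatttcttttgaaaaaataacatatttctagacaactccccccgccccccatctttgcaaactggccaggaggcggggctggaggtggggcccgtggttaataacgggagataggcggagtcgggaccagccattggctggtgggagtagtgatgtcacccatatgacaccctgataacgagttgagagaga
Among 32536 such windows of all genes, 3.17% held the forkhead motif, 9.97% the GATA motif, 3.03% the SOX motif, 11.52% the NK2 motif and 9.57% the C/EBP motif. The windows shown for the 3 factors that fell together shared none of the 5 motifs. With motifs this rare, 3 windows would seldom share one, so nothing on shared control follows. A match is a run of letters and not a bound site.

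Foxa2, the forkhead pioneer factor of endoderm, was called lower at both early days. In the cardiac lobe, the medial lobe and the whole right lung it stood at 8.12, 8.22 and 7.68 at day 3 and at 7.74, 8.28 and 7.72 at day 7, against 8.55, 8.48 and 8.18 at day 0. Sham lungs had 8.45, 8.59 and 8.15 in the same regions. In each region the day 3 and day 7 values lay below both controls, although the ranges of the conditions overlapped because whole lungs were lower than lobes at every time. Foxa2 fell by 0.40 ± 0.10 at day 3 against day 0, 0.760-fold (adjusted p = 0.0301), and by 0.49 ± 0.10 at day 7 against day 0, 0.713-fold (adjusted p = 0.0112). Against sham lungs the difference was -0.39 ± 0.10 at day 3 (adjusted p = 0.0299) and -0.48 ± 0.10 at day 7 (adjusted p = 0.0146). Both controls are set against the same pneumonectomy arrays, with 1 shared estimate of the spread. Without the 2 arrays of low weight the day 7 difference was -0.37 against day 0 (adjusted p = 0.0472) and -0.36 against sham lungs (adjusted p = 0.0694). Of the 6 arrays of each comparison, leaving out the day 3 medial, day 3 whole lung, day 0 cardiac or day 0 whole lung array ended the day 3 call (adjusted p = 0.078, 0.148, 0.155 and 0.113, in that order). Leaving out the day 7 cardiac, day 0 cardiac or day 0 whole lung array ended the day 7 call (adjusted p = 0.0616, 0.0669 and 0.0553, in that order). All those differences stayed negative, from -0.48 to -0.33 at day 3 and from -0.57 to -0.37 at day 7. Against sham lungs, the call held in 1 of 6 fits with an array left out at day 3 and in 3 of 6 at day 7. It was lost at day 7 without the day 7 cardiac (adjusted p = 0.0799), sham cardiac (adjusted p = 0.0809) or sham whole lung array (adjusted p = 0.0552). At day 3 it was lost without the medial (adjusted p = 0.0751) or whole lung (adjusted p = 0.166) array of day 3, or without the cardiac (adjusted p = 0.12), medial (adjusted p = 0.0665) or whole lung (adjusted p = 0.0891) array of sham lungs.

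Nkx2-1, the factor that marks lung epithelium from its first specification, fell at day 3 and did not pass at day 7. It stood at 9.45, 9.55 and 9.02 in cardiac lobe, medial lobe and whole lung at day 3, against 9.81, 9.80 and 9.52 at day 0 and 9.90, 9.80 and 9.40 in sham lungs. Each region was at its lowest of all 7 conditions at day 3. Nkx2-1 fell by 0.37 ± 0.09 against day 0, 0.774-fold (adjusted p = 0.0174), and by 0.36 ± 0.09 against sham lungs (adjusted p = 0.0166). At day 7 it was at 9.62, 9.85 and 9.50, a difference from day 0 of -0.05 with a 95% interval of -0.24 to 0.13. The difference between day 7 and day 3 was 0.32 ± 0.09 and did not pass (adjusted p = 0.202), and neither did that of any other factor, with 0.0652% of all genes called. Without the day 3 whole lung array the day 3 difference from day 0 was -0.29 (adjusted p = 0.121), and without the day 0 cardiac or day 0 whole lung array it was -0.34 (adjusted p = 0.0843) or -0.37 (adjusted p = 0.0634). Against sham lungs the call was lost without the day 3 whole lung array (-0.29, adjusted p = 0.136) and without the sham cardiac array (-0.28, adjusted p = 0.121).

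Foxa1, which shares much of its binding with Foxa2, did not pass on either early day. Its values were 9.60, 9.57 and 9.73 in cardiac lobe, medial lobe and whole lung at day 3, against 9.70, 9.98 and 9.87 at day 0, so all regions were lower but by amounts between 0.10 and 0.41. The difference was -0.22 ± 0.09 (adjusted p = 0.17), and at day 7 it was -0.06 ± 0.09 (adjusted p = 0.635). The 95% interval at day 3, -0.40 to -0.03, includes the -0.40 seen for Foxa2, so a decrease of that size in Foxa1 was not excluded by these arrays.

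These decreases took place among other epithelial genes that also lay low. Of 14 genes carried by epithelial cells of any kind, such as the junction genes Ocln (-0.67, adjusted p = 0.00172) and Cldn4 (-0.47, adjusted p = 0.00671), 2 fell and none rose at day 3 against day 0, with a median of -0.26. At day 7, 2 fell, the same 2 genes, and the median was -0.18. The mean of the 14 genes lay between 9.75 and 10.06 on day 3 arrays and between 9.75 and 10.13 on day 7 arrays, against 10.09 to 10.24 on day 0 arrays and 9.92 to 10.20 on sham arrays. When each array was centred on that mean, an alternative chosen after seeing the data, the day 3 differences from day 0 became -0.17 for Foxa2 (adjusted p = 0.193), -0.15 for Nkx2-1 (adjusted p = 0.272) and -0.34 for Sox11 (adjusted p = 0.0963). The day 7 difference of Foxa2 became -0.29 (adjusted p = 0.0551). Measured against epithelial genes at large, none of these decreases passed, and in a piece of tissue fewer epithelial cells and less RNA per epithelial cell cannot be told apart. That centring moves the median of all genes upward by 0.22 at day 3 and by 0.20 at day 7.

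Sox11, an embryonic SOX factor, fell furthest at day 3. Its mean over all arrays was 6.84, also dim beside the median gene mean of 6.98, and no detection calls were given. It stood at 6.56, 6.61 and 6.37 in cardiac lobe, medial lobe and whole lung at day 3 and at 6.70, 6.81 and 6.62 at day 7, against 7.46, 6.87 and 6.90 at day 0 and 7.05, 7.12 and 6.77 in sham lungs. All day 3 and all day 7 values lay below all of day 0, and in each region they lay below the sham value. Arrays without overlap with day 0, in either direction, were seen for 27.5% of all genes at day 3 and 29.5% at day 7. Sox11 fell by 0.56 ± 0.12 at day 3 against day 0, 0.679-fold (adjusted p = 0.01), and by 0.47 ± 0.12 against sham lungs (adjusted p = 0.0262). At day 7 the difference from day 0 was -0.36 ± 0.12 (adjusted p = 0.0724). Day 14 arrays were back at 7.25, 6.91 and 7.12, and the difference between day 14 and day 7 was 0.38 ± 0.12 (adjusted p = 0.201). No factor passed between these days, with 0.727% of all genes called. The cardiac lobe decided part of the day 3 value: without the day 0 cardiac array the difference from day 0 was -0.42 (adjusted p = 0.0739), and without the day 3 cardiac array -0.50 (adjusted p = 0.0621). Against sham lungs the call held only without the day 3 medial array and was lost without the day 3 cardiac (adjusted p = 0.129), day 3 whole lung (adjusted p = 0.0934), sham cardiac (adjusted p = 0.0567), sham medial (adjusted p = 0.136) or sham whole lung array (adjusted p = 0.0541).

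Sox9, the factor of distal tip progenitors and also of cartilage, rose at day 7. Its mean over all arrays, 6.36, lay below the median gene mean of 6.98, and without detection calls its distance from background is not known. In cardiac lobe, medial lobe and whole lung it stood at 6.61, 6.36 and 6.98 at day 3 and at 7.15, 6.64 and 6.51 at day 7, against 6.08, 6.04 and 6.31 at day 0 and 6.24, 5.98 and 6.43 in sham lungs. Every day 3 and day 7 value exceeded every day 0 value, where 27.5% and 29.5% of all genes likewise had no overlap, in either direction. The peak was at day 7 in both lobes and at day 3 in the whole lung. Sox9 rose by 0.62 ± 0.16 at day 7 against day 0, 1.54-fold (adjusted p = 0.0259), and the day 3 difference of 0.50 ± 0.16 did not pass (adjusted p = 0.0701). Against sham lungs it was 0.43 ± 0.16 at day 3 (adjusted p = 0.12) and 0.55 ± 0.16 at day 7 (adjusted p = 0.0585). At day 14 the values were 6.18, 5.96 and 6.43, and the difference between day 14 and day 7 was -0.57 ± 0.16 (adjusted p = 0.118).

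The size of the Sox9 increase at day 7 depended on the cardiac lobe. The difference between day 7 and day 0 was 1.07 in the cardiac lobe, 0.59 in the medial lobe and 0.20 in the whole lung. Without the day 7 cardiac array it was 0.39 (adjusted p = 0.145), and without both arrays of low weight it was 0.40 (adjusted p = 0.0966). The day 3 difference passed in that last fit at 0.50 (adjusted p = 0.00959), as more of all genes did. The call at day 7 was also lost without the day 7 medial array (0.60, adjusted p = 0.0589) and without any single day 0 array (cardiac 0.58, adjusted p = 0.0965; medial 0.66, adjusted p = 0.0515; whole lung 0.62, adjusted p = 0.0892). Centred on the epithelial mean, Sox9 passed at both days, with 0.73 at day 3 (adjusted p = 0.0202) and 0.82 at day 7 (adjusted p = 0.0143). That centring raises the median of all genes by 0.22 at day 3 and by 0.20 at day 7. Of all calls, 95% at day 3 and 86.9% at day 7 were then higher, against 59.3% and 42.9% before. Passing in that fit therefore adds nothing for Sox9. Of 12 cartilage genes, none passed at day 3 (median 0.14) and Col2a1, the main collagen of cartilage, alone rose at day 7 (0.53, adjusted p = 0.0311; median 0.18). The part of cartilage in the Sox9 values was not tested.

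**Figure D2:**
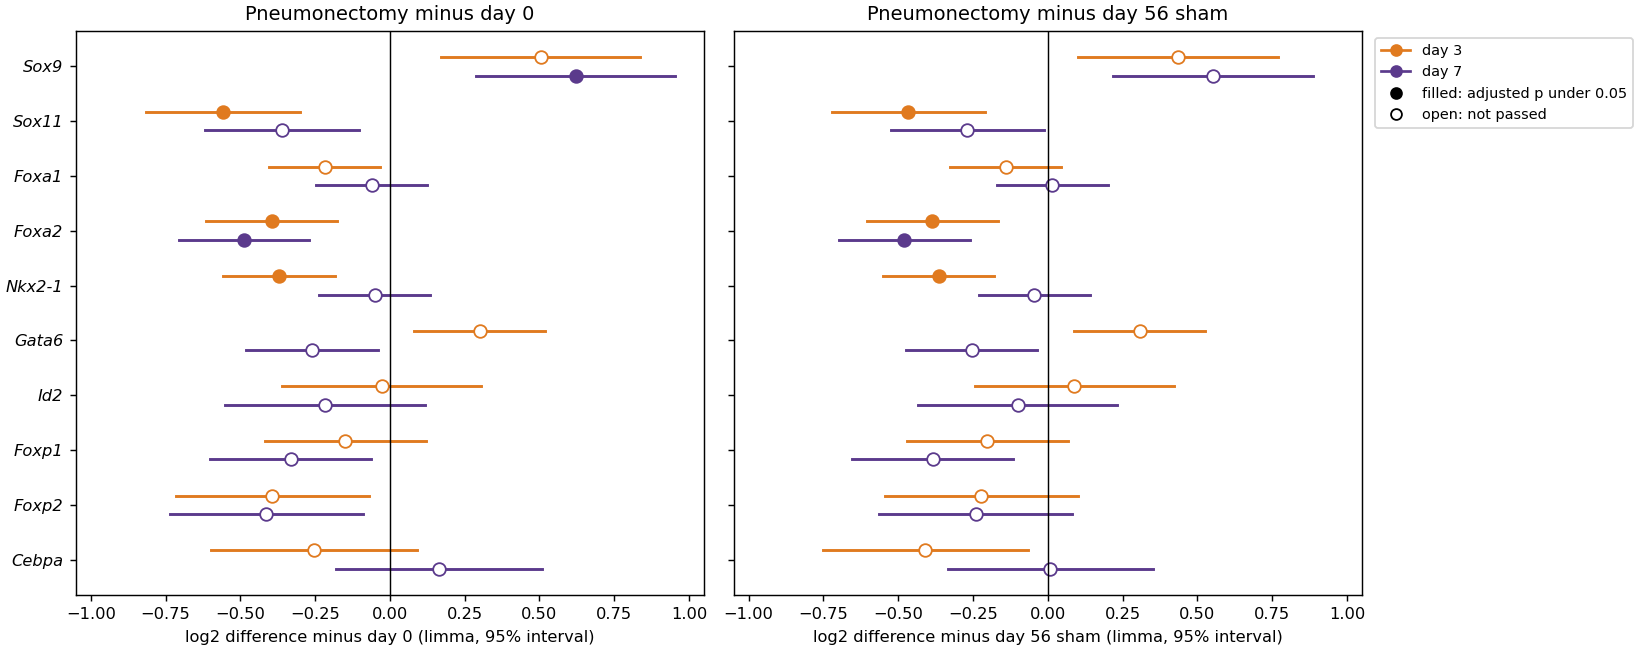
Difference in log2 expression of each factor at day 3 (orange) and day 7 (purple) from day 0 lungs (left panel) and from day 56 sham lungs (right panel), from limma on 21 arrays with bars for the 95% interval; filled points passed at an adjusted p under 0.05. Foxa2 is filled in all 4 places, Sox11 and Nkx2-1 at day 3 against both controls, and Sox9 at day 7 against day 0 alone; both panels share the pneumonectomy arrays.

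Id2, the helix-loop-helix inhibitor that shares the distal tip with Sox9 in the embryo, passed in no comparison between conditions. Its values were 11.39, 11.37 and 10.91 in cardiac lobe, medial lobe and whole lung at day 3 and 10.75, 11.41 and 10.94 at day 7, against 11.43, 11.31 and 11.01 at day 0. The day 7 cardiac array was the lowest of its region. The difference from day 0 was -0.03 at day 3 (95% interval -0.36 to 0.31, adjusted p = 0.95) and -0.22 at day 7 (-0.55 to 0.12, adjusted p = 0.349). The day 7 difference was -0.68 in the cardiac lobe, 0.10 in the medial lobe and -0.07 in the whole lung, and without the 2 arrays of low weight it was 0.02 (adjusted p = 0.955). Id2 is also a gene of natural killer and other lymphoid cells, and lymphocyte genes were low at both days: of 13 genes of T, NK and B cells, 10 fell at day 3 and 11 at day 7 against day 0, and none rose. Their mean level lay between 7.15 and 7.36 on day 3 arrays and between 6.76 and 6.97 on day 7 arrays, against 7.89 to 8.13 on day 0 arrays and 7.20 to 7.37 on sham arrays. Against sham lungs 0 of the 13 passed at day 3 and 5 fell at day 7. The part of lymphocytes in the Id2 values was not tested.

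Gata6, a zinc finger factor of alveolar maturation, differed between the conditions in the F test and passed in no single comparison between conditions. It stood at 10.59, 10.52 and 10.43 in cardiac lobe, medial lobe and whole lung at day 3, the highest of the 7 conditions in each region, and at 9.73, 10.20 and 9.93 at day 7. Day 0 lungs had 10.35, 10.29 and 10.01, and sham lungs 10.21, 10.25 and 10.17. The day 3 values did not overlap with those of day 0, as was so, in either direction, for 27.5% of all genes. Differences from day 0 were 0.30 ± 0.10 at day 3 (adjusted p = 0.104) and -0.26 ± 0.10 at day 7 (adjusted p = 0.114), and the difference between day 7 and day 3 was -0.56 ± 0.10 (adjusted p = 0.0585). The day 7 difference was -0.62 in the cardiac lobe, -0.09 in the medial lobe and -0.08 in the whole lung. Without the 2 arrays of low weight it was -0.13 (adjusted p = 0.396). The day 3 difference was then the same 0.30 and passed (adjusted p = 0.0153), in a fit that called more of all genes at day 3. The difference between day 7 and day 3 passed in that fit too, at -0.43 (adjusted p = 0.0487). Centred on the epithelial mean, the day 3 difference was 0.52 (adjusted p = 0.00293). That centring raises the median of all genes by 0.22 at day 3, and 95% of all calls were then higher, against 59.3% before.

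Some marker genes of macrophages of the pleural cavity, a compartment in which Gata6 is known to be active, were high at day 3. Of 8 such genes, Serpinb2 (4.11, adjusted p = 0.000658) and Cd5l (2.99, adjusted p = 0.00452) rose at day 3 against day 0, none fell, and the median was 1.40. The mean of the 8 genes was 7.39 to 8.47 on day 3 arrays and 6.29 to 8.48 on day 7 arrays, against 5.96 to 6.62 on day 0 arrays and 6.10 to 6.36 on sham arrays. Against sham lungs, 2 rose and 1 fell at day 3. At day 7 none of the 8 passed against day 0 and the median was 1.30. The 2 with the smallest p went opposite ways, Serpinb2 at 1.91 (adjusted p = 0.0593) and Icam2 at -0.31 (adjusted p = 0.0652). Against sham lungs, 0 rose and 1 fell at day 7. The mean of the 8 genes was then 8.48 in the cardiac lobe, 6.29 in the medial lobe and 6.82 in the whole lung. In that day 7 cardiac array Gata6 had its lowest value of all 21 arrays, 9.73. The part of these cells in the Gata6 values was not tested.

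Cebpa, a factor of alveolar type II and of myeloid cells, passed in no comparison between conditions. Its values were 8.97, 9.39 and 9.11 in cardiac lobe, medial lobe and whole lung at day 3 and 9.98, 9.52 and 9.22 at day 7, against 9.61, 9.34 and 9.28 at day 0 and 9.55, 9.54 and 9.61 in sham lungs. Each day 3 value lay below the sham value of its region, a difference of -0.41 ± 0.16 (adjusted p = 0.166), but the medial lobe was above its day 0 value. The cardiac lobe spanned the whole range of the gene, with its lowest value at day 3 and its highest at day 7. Region-centred Cebpa values correlated with the small RNA level at r = 0.72 over the 21 arrays, and Gata6 at r = -0.63, as a description in which the arrays share conditions. For Foxp2 it was -0.61, for Foxp1 -0.56, for Id2 -0.53 and for the other five factors between -0.39 and 0.29. The part of the RNA in these values was not tested. Cebpa differed from day 0 by 0.16 at day 7 (adjusted p = 0.489), and by -0.02 without the 2 arrays of low weight (adjusted p = 0.966). Of 14 alveolar type II genes, none passed at day 3 or day 7 against day 0, with medians of -0.24 and -0.05.

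Foxp1 and Foxp2, forkhead repressors that act together in the epithelium, lay below day 0 in all regions at both early days without passing. Foxp1 was at 9.50, 9.40 and 9.31 in cardiac lobe, medial lobe and whole lung at day 3 and at 8.91, 9.41 and 9.35 at day 7, against 9.67, 9.55 and 9.44 at day 0. Foxp2 was at 7.14, 6.93 and 6.82 at day 3 and at 6.59, 7.35 and 6.89 at day 7, against 7.35, 7.49 and 7.23 at day 0. The day 7 cardiac array was the lowest of all 21 for both genes. Foxp1 differed from day 0 by -0.15 ± 0.13 at day 3 (adjusted p = 0.583) and by -0.33 ± 0.13 at day 7 (adjusted p = 0.104). Foxp2 differed by -0.39 ± 0.15 at day 3 (adjusted p = 0.15) and by -0.41 ± 0.15 at day 7 (adjusted p = 0.0946). Without the 2 arrays of low weight, the day 3 value of Foxp2 passed (-0.39, adjusted p = 0.0228), in a fit that called more of all genes at day 3. The day 7 value of Foxp2 was then -0.21 (adjusted p = 0.349), and Foxp1 was at -0.13 at day 7 (adjusted p = 0.364). The small RNA level, with which both had negative correlations, was highest among the lobes in that day 7 cardiac array.

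Counted by overlap of the arrays, 4 of the 10 factors had day 3 values wholly above or below day 0 (Sox9 and Gata6 above, Sox11 and Foxp2 below), against 27.5% of all genes. At day 7 these were 3 (Sox9 above, Sox11 and Foxp1 below), against 29.5%. Both shares are near those of all genes. Leaving out single arrays took the number of factors called to between 0 and 3 at day 3 and to between 0 and 3 at day 7. With the region term left out, no factor passed at either day.

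From day 14 on, no factor passed against day 0. At day 14 the 10 differences from day 0 ran between -0.16 for Foxp2 and 0.10 for Cebpa, with adjusted p of at least 0.703. Among all genes 1.2% were called then. At day 28 they ran between -0.21 for Sox11 and 0.11 for Id2, with 0 genes of any kind called. Against sham lungs 0 factors passed at day 14 or day 28, and 0 of the 10 had an unadjusted p under 0.05 on either day, with 0.0652% and 0.186% of all genes called. At day 56 Sox11 was at 6.83, 6.70 and 6.48 in cardiac lobe, medial lobe and whole lung after pneumonectomy, against 7.46, 6.87 and 6.90 at day 0 and 7.05, 7.12 and 6.77 after sham surgery. Each day 56 pneumonectomy value lay below the day 0 value and the sham value of its region. The Sox11 difference was -0.40 ± 0.12 from day 0 (adjusted p = 0.247) and -0.31 ± 0.12 from sham lungs (adjusted p = 0.53). Foxa2 differed at day 56 by -0.27 ± 0.10 from day 0 (adjusted p = 0.309) and by -0.26 ± 0.10 from sham lungs (adjusted p = 0.539). Foxp2 was at 7.16, 7.20 and 6.66 at day 56 after pneumonectomy, against 7.35, 7.49 and 7.23 at day 0, a difference of -0.35 ± 0.15 (adjusted p = 0.337). When the 2 arrays of low weight, one of them the whole lung of day 56, were left out, the differences from day 0 were -0.39 for Sox11 (adjusted p = 0.447), -0.28 for Foxa2 (adjusted p = 0.489) and -0.25 for Foxp2 (adjusted p = 0.621). By limma, 0 factors were called at day 56 after pneumonectomy against day 0, with 0.0903% of all genes called. An unadjusted p under 0.05 was reached there by 3 of the 10 factors and by 2832 of all 19938 genes. Against sham lungs 0 factors were called, with 0.336% of all genes called. Such an unadjusted p was reached in that comparison by 2 factors and by 1630 of all genes. Between sham and day 0 lungs 0 of the 10 passed by limma, with differences between -0.17 and 0.15, no factor at an unadjusted p under 0.05 and 0.381% of all genes called.

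By limma, lobes and whole right lungs differed for 6 of the 10 factors, against a background of 29.1% of all genes, 20.3% higher and 8.79% lower in lobes. Foxa2 (0.38 ± 0.06, adjusted p = 0.000435), Nkx2-1 (0.28 ± 0.05, adjusted p = 0.00116), Id2 (0.42 ± 0.09, adjusted p = 0.0035), Gata6 (0.20 ± 0.06, adjusted p = 0.0181) and Sox11 (0.23 ± 0.07, adjusted p = 0.0214) were higher in lobes, and Sox9 was lower there (-0.25 ± 0.09, adjusted p = 0.0447). Of 14 alveolar type II genes 13 were higher in lobes, as were 11 of 12 endothelial genes and 7 of 12 alveolar type I genes, whereas 5 of 12 club and secretory genes and 3 of 12 ciliated cell genes were lower. The small RNA level separates the same samples, and with it as a covariate none of these 6 passed. Cebpa, not called before, then passed (0.66, adjusted p = 0.0117), and Sox9 (0.06, adjusted p = 0.859) and Gata6 (-0.06, adjusted p = 0.73) turned their direction. When single arrays were left out, Sox9 passed in 3 of 21 fits, Sox11 in 18, Gata6 in 19, and Foxa2, Nkx2-1 and Id2 in all 21. Sox9 had adjusted p up to 0.121, without the day 56 pneumonectomy whole lung array. Sox11 lost its call without the whole lung array of day 28 (adjusted p = 0.063), day 56 pneumonectomy (0.0512) or sham surgery (0.0581), and Gata6 without that of day 14 (0.0576) or day 56 pneumonectomy (0.0594). The part of tissue make-up and of RNA preparation in these regional differences cannot be told apart. With arrays centred on their medians, Sox11 no longer passed, and among all genes 45.1% of the calls were higher in lobes, against 69.8% before. With arrays centred on the epithelial mean, Sox11 (0.09, adjusted p = 0.362), Nkx2-1 (0.14, adjusted p = 0.068) and Gata6 (0.06, adjusted p = 0.391) did not pass, Foxa1 passed as lower in lobes (-0.16, adjusted p = 0.0338), and 17.2% of all calls were higher. That centring moves the median of all genes by -0.14 in this comparison.

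Cardiac and medial lobes differed in no factor by limma, with 0.0903% of all genes called. An unadjusted p under 0.05 was reached by 2 factors and by 1879 of all 19938 genes. Foxa1 was at -0.19 ± 0.06 (adjusted p = 0.269) and Foxa2 at -0.21 ± 0.07 (adjusted p = 0.312) in cardiac against medial lobes. The early response, days 3 and 7 against day 0 and sham together, was compared between regions in an interaction model. No factor passed, 0% of all genes passed, and no factor had an unadjusted p under 0.05. The interaction with the smallest p among the factors was Id2 between cardiac and medial lobes (-0.46 ± 0.25, adjusted p = 0.964). Each region has 1 array per condition, which leaves this comparison with wide errors.

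Other regulators of lung epithelial development were read from a list of 25 genes. Of these, 1 rose and 2 fell at day 3 against day 0, with a median of -0.15. Etv5, an ETS factor downstream of FGF signals in the distal lung, fell (-0.49, adjusted p = 0.0427), as did Grhl2, a factor of epithelial junctions (-0.49, adjusted p = 0.0163), while Foxm1, a forkhead factor of cell division, rose (1.51, adjusted p = 0.000417). At day 7, Foxm1 rose (1.18, adjusted p = 0.00424) and Hes1, a target of Notch, fell (-0.92, adjusted p = 0.0175), with a median of 0.04. Of 24 genes for the FGF, WNT, BMP and hedgehog signals of branching, 1 rose and 3 fell on each day. Wnt2b, which in the mouse embryo helps to specify the lung, fell at both days (-0.86, adjusted p = 0.00366, and -0.85, adjusted p = 0.00652). Spry1, an inhibitor of FGF signalling, fell at day 3 (-0.45, adjusted p = 0.044), and Gli3, a mediator of hedgehog signals, rose (0.52, adjusted p = 0.0138). Fgf18 (-0.60, adjusted p = 0.0311) and Lef1, a partner of beta-catenin that lymphocytes also carry (-0.75, adjusted p = 0.0333), fell at day 7.

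Genes of mature epithelial cells were read beside the factors. Of 12 alveolar type I genes 3 fell on each day, among them Rtkn2 (-0.75, adjusted p = 0.0218 at day 3, and -0.87, adjusted p = 0.0117 at day 7) and Hopx at day 3 (-0.33, adjusted p = 0.0421). Of 12 ciliated cell genes 2 fell at day 3 and 6 at day 7, among them the dynein Dnah11 at day 3 (-0.64, adjusted p = 0.00746) and Hydin at day 7 (-0.88, adjusted p = 0.0387), whereas against sham lungs 0 fell on either day. Of 12 club and secretory genes Scgb3a2 fell at day 3 (-0.43, adjusted p = 0.0289) and the mucin Muc5ac rose at day 7 (1.79, adjusted p = 0.00669). Against sham lungs, 3 alveolar type II genes fell at day 3. Sham and day 0 lungs thus gave different counts for ciliated, alveolar type II and lymphocyte genes, while Foxa2, Nkx2-1 and Sox11 passed against both at day 3. The same day 3 arrays enter both of these comparisons. Core clock genes also parted the controls, with 8 of 13 lower and 1 higher at day 3 against day 0 but 7 higher and 2 lower against sham lungs.

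**Figure D3:**
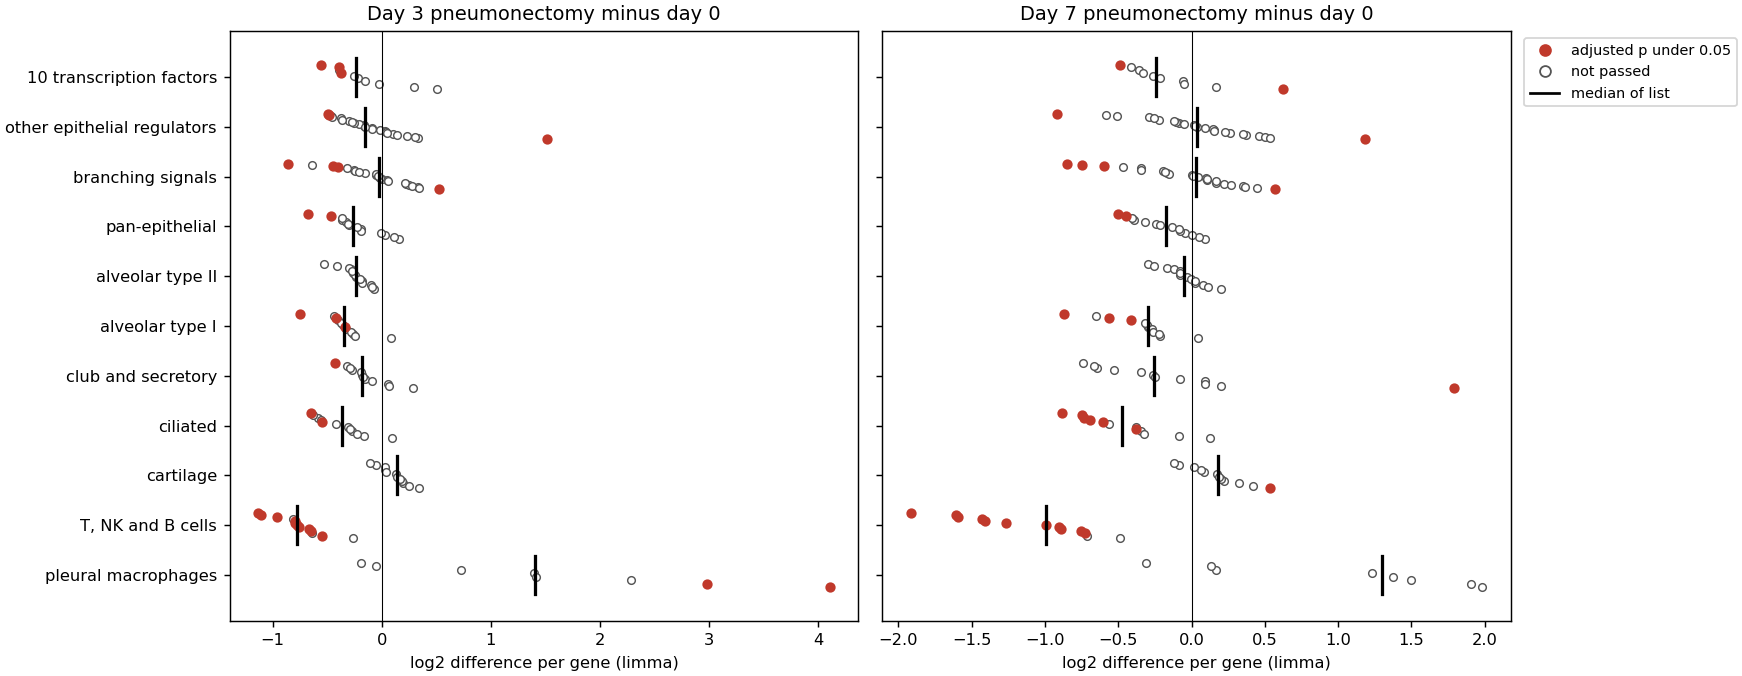
Log2 difference of every gene in 11 groups at day 3 (left panel) and day 7 (right panel) against day 0, from limma on 21 arrays; each point is a gene, filled where its adjusted p was under 0.05, and the black bar is the median of the group. The 10 factors have medians of -0.24 on both days, beside -0.26 and -0.18 for genes of epithelial cells of any kind, -0.78 and -0.99 for T, NK and B cells, and 1.40 and 1.30 for pleural macrophages.

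Across the 21 arrays, after the mean of each region was subtracted, Sox9 and Foxa2 ran in opposite directions with r = -0.81. Without the 2 arrays of low weight it was -0.71 over 19 arrays. Foxa2 went along with Foxp1 (r = 0.73, and 0.58 over 19 arrays), Foxp2 (0.69, and 0.56), Sox11 (0.66, and 0.62) and Nkx2-1 (0.55, and 0.65). Foxp1 and Id2 had r = 0.61 over 21 arrays and 0.01 over 19, so that this likeness rested on those 2 arrays. These correlations are descriptions, since the arrays share the 7 conditions and the normalization, and 45 pairs were computed.

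**Figure D4:**
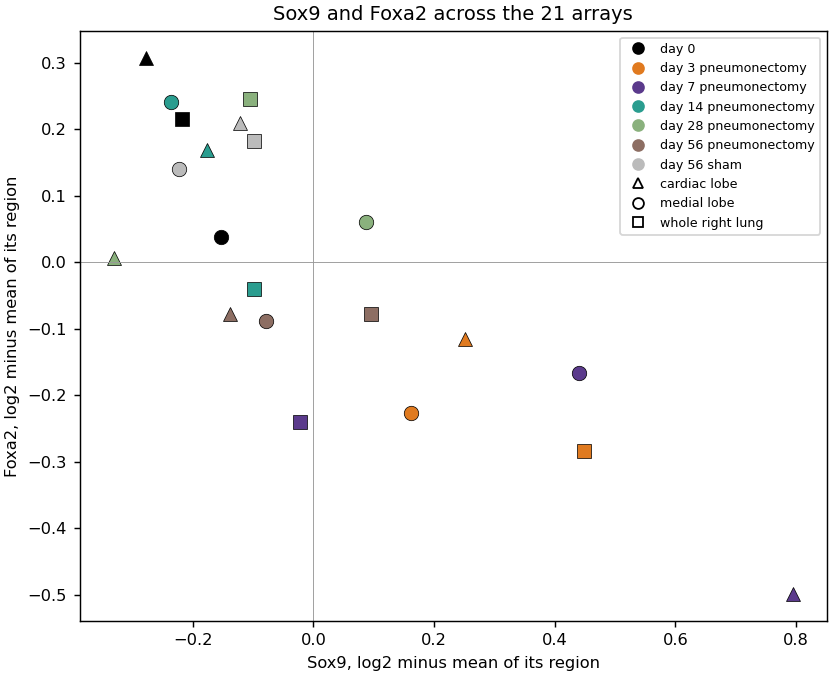
Sox9 (horizontal axis) against Foxa2 (vertical axis), each as log2 expression minus the mean of its region, with 1 point per array, colour for the condition and shape for the region. Day 3, day 7 and day 56 pneumonectomy arrays and the day 14 whole lung lie below 0 on the vertical axis. The day 7 cardiac lobe is at the far lower right, and the correlation is -0.81 over 21 arrays.

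The genes whose region-centred course was most like that of a factor over the 21 arrays were picked by Pearson correlation among all 19938 genes, with predicted genes passed over. For Sox9 they were Wnt4 (r = 0.91), a WNT ligand, Mxd3 (0.91), a factor of the MYC and MAX network, and Hrob (0.90), a gene of homologous recombination. For Foxa2 they were Eps8l2 (0.92), Fbln5 (0.90), a gene of elastic fibres, and Aldh3a1 (0.89), an aldehyde dehydrogenase. For Nkx2-1 they were Patj, Fzd8, a WNT receptor, and Nckap5, each at 0.84, and for Sox11 Hectd3 (0.84), the cyclin Ccnd2 (0.83) and Arhgef38 (0.83). For Gata6 they were Ap1m1, Ampd3 and the kinase Mapk14, each at 0.89, and for Cebpa Matn4 (0.88), B3gat3 and Chmp7 (0.87 each). For Foxp1 they were Rictor (0.94), Smim14 and Hipk1 (0.93 each), for Foxp2 Zfp418 (0.92), Itprid1 and Ccdc39 (0.91 each), for Id2 Cyb561a3 (0.87), Fis1 (0.86) and Arl11 (0.85), and for Foxa1 AA986860, Osbpl3 (0.81 each) and Dusp18 (0.75). With the highest of 19938 correlations picked, values of this size describe likeness and carry no test. All 21 arrays were used, among them the day 7 cardiac and day 56 pneumonectomy whole lung arrays of low weight. How far these likenesses, those of Foxp1 and Foxp2 included, rest on those arrays was not tested.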

How the data were processed

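The authors deposited 1 table of log2 expression values, which had been background-corrected, normalized across arrays and summarised per probe set by RMA (robust multi-array averaging), as the submitters' processing notes name it. No version of it is given in the sources used here. In all, the table held 35556 probe sets on 21 arrays and no other column of samples, no 2 columns were identical, and arrays correlated at 0.963 to 0.996. Of the probe sets, 21789 carried a single symbol in the platform annotation, 1621 carried more than 1 and 12146 carried none. A RefSeq gene table of GRCm38.p6 matched the gene number of 21698. For 999 of the 19938 genes, the probe set with the highest mean was kept. No detection calls were given, so dim genes stayed in. Amplification from the 3' end is what the protocols in the labels describe, but the annotation belongs to a whole-transcript array, so the labelling chemistry is unsettled; all arrays share 1 protocol text and 1 hybridisation date.

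All 21 arrays were fitted with limma 3.58.1 in R 4.3.3, with additive terms for condition and region, which left 12 residual degrees of freedom. Region serves as the block, with the medial lobe as replicate 1, the cardiac lobe as replicate 2 and the whole lung as replicate 3, per the labels. Because each lobe and the whole lung differ in level, SDs over a condition include the difference between regions. The number of arrays limits the precision. On simulated data with 19938 genes, 41 of 100 genes shifted by 0.5 and 95 of 100 shifted by 1 on the log2 scale were recovered for day 3 against day 0, and 57 and 93 for day 7. Among unshifted genes, 12 were called for day 3 and 2 for day 7. Far fewer genes were shifted there than were called in the data, so these shares do not carry over directly. The 10 factors, the gene lists and the tests were chosen with earlier results of these data known. All 10 factors are named; from each list, up to 3 passing genes by size of change, or the 2 with the smallest p, could be named, and for each factor the 3 most correlated genes. Counts for a list are over its measured genes.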

Additional observations from a re-analysis of the deposited data

Results flagged for a closer look

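Within each region, the highest or lowest of the 7 arrays was set against its nearest neighbour by Dixon's ratio, the gap divided by the range. The 7 arrays are different conditions, and chance alone passes the 95% limit in about 1 of 20 such sets; 5 of 36 passed. In the medial lobe, the day 3 array stood below the other 6 for Foxa1 (9.57, nearest 9.82, ratio 0.605) and for Nkx2-1 (9.55, nearest 9.80, ratio 0.644). In the cardiac lobe, the day 7 array stood below the other 6 for Foxp1 (8.91, nearest 9.50, ratio 0.652) and for Foxp2 (6.59, nearest 7.12, ratio 0.706). The same cardiac array also had the narrowest spread of all gene values in its region, with an interquartile range of 3.55 against 3.73 for the nearest (ratio 0.589).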

How the results depend on the processing

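Counts of the 10 factors called depended on how the region and the arrays were handled, and the causes were not tested. With no replicate block, which is the fit without the region term, 0 factors passed at day 3 or day 7 against day 0 or sham lungs and 0 in the F test, instead of 3, 2, 3, 1 and 4. With the lobes alone (14 of the 21 arrays), 0 passed at day 3 against day 0, at day 3 against sham lungs and in the F test. Without the 2 arrays of low weight, 6 passed at day 3 against day 0, 6 at day 3 against sham lungs, 1 at day 7 against day 0, 0 at day 7 against sham lungs and 1 between day 7 and day 3. Array weights gave 6, 7 and 2 at day 3 against day 0, day 3 against sham lungs and day 7 against sham lungs, 2 between day 7 and day 3, 2 between day 14 and day 7 and 6 in the F test. With the small RNA level as a covariate there were 0 at day 7 against day 0, 5 and 3 at days 3 and 7 against sham lungs, 2 between day 14 and day 7, and 1 instead of 6 between lobes and whole lungs, where Sox9 (0.0592) and Gata6 (-0.0625) reversed. With only the 6 arrays compared, 0 passed at day 7 against either control. Leaving out dim genes gave 2 at day 7 against sham lungs. Centring on the epithelial mean gave 1 at day 7 against day 0, 1 and 0 at days 3 and 7 against sham lungs, 1 between day 7 and day 3 and 2 in the F test.

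Leaving out single arrays gave 0 to 3 factors at day 3 and 0 to 3 at day 7 against day 0, 0 to 2 and 0 to 3 against sham lungs, 0 to 1 between day 7 and day 3, 0 to 1 between day 14 and day 7, 1 to 5 in the F test and 3 to 8 between lobes and whole lungs. Over all genes, 1336 were called at day 3 and 1733 at day 7 against day 0, against 628 and 424 without the region term, 335 at day 3 with the lobes alone, 2827 and 1052 without the 2 arrays, 3379 and 2801 with array weights, 666 at day 7 with the small RNA covariate and 34 at day 7 with only the arrays compared. At day 7 against day 0, 60.4% of calls were higher after median centring and 42.9% before it. Among the values of named factors, 227 kept direction and side of the threshold, 98 lost the call and 2 reversed. With 3 arrays per condition and no detection calls, differences of 0.5 were recovered less often than differences of 1 on simulated data.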

Other observations

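Genes of other cell types of the lung were read at days 3 and 7. At day 3, of 12 mesenchymal genes, the fibrillar collagens Col1a1 (2.12, adjusted p = 0.00394), Col1a2 (1.94, adjusted p = 0.00695) and Col3a1 (1.88, adjusted p = 0.00704) rose against day 0, and none fell, while the median of the 12 was 0.05 (limma, 3 arrays per condition). Of 12 myeloid genes, 3 rose and 1 fell, among them Itgam, an integrin of monocytes and neutrophils (2.39, adjusted p = 0.00305), and the complement gene C1qa (1.69, adjusted p = 0.00168). Of 12 endothelial genes 0 passed against day 0 on either day, and 7 and 5 fell against sham lungs at days 3 and 7. Of 10 cardiac muscle genes, which the lung carries in the walls of pulmonary veins, 0 passed against day 0, while 3 and 2 fell against sham lungs at days 3 and 7.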
